A study of Homo sapiens with 16 samples.

Results

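The response of wild-type (WT) JSL1 cells to phorbol 12-myristate 13-acetate (PMA) was followed in 4 of the 16 libraries of the series, chosen by their labels as the WT libraries, with 2 unstimulated and 2 PMA-treated. JSL1 is a clone of Jurkat, a long-established line derived from a human T cell leukemia. The WT cells carried no edit of HDAC7, the histone deacetylase gene at the centre of the study, whose 12 other libraries came from lines edited at its exon 9 (dE9 and iE9). The treated WT cells received 20 ng/mL PMA for 48 h and the unstimulated cells were kept in growth medium. The labels put both groups at 48 h, whereas the series' design text calls the unstimulated samples 0 h. A single clone of a leukemic line was used as the model. The labels do not say whether the libraries of a group came from separate cultures, so the spread within groups may be technical. Unless another fit is named, p-values rest on that spread in all 16 libraries, the 12 of the edited lines included. A gene that fails the test therefore need not vary much among the 4 WT libraries.

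PMA stands in for diacylglycerol, the membrane lipid made when the T cell receptor is engaged. It binds the C1 domains of most protein kinase C (PKC) isoforms and of the exchange factor RASGRP1, and so feeds the RAS-RAF-MEK-ERK cascade and, through a scaffold complex, the IKK kinases that release NF-kB. ERK activates ETS family proteins and serum response factor partners, which switch on EGR1 and the phosphatase and Sprouty genes that dampen the cascade. The calcium branch, which acts through calcineurin and NFAT, is not engaged directly by a phorbol ester. Levels below are counts per 1000000 scaled by library size factors (CPM), log2 fold changes are PMA over unstimulated with their standard error, and a gene is said to have risen or fallen where the adjusted p of the test over all genes was under 0.05.

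Promoters of 3 genes, picked because each holds letters that name a class of transcription factor of these pathways, are shown first. They are the 250 bases just upstream of the RefSeq start (GRCh38.p14) of EGR1 (chr5:138465229-138465478, plus strand), TNFAIP3 (chr6:137867009-137867258, plus strand) and HSPE1 (chr2:197500129-197500378, plus strand), a gene that rose 20.8-fold, a gene that rose 8.34-fold and a gene that fell 3.97-fold. Capitals mark a CArG box in EGR1, a kappa-B motif in TNFAIP3 and the E-box CACGTG in HSPE1.
EGR1: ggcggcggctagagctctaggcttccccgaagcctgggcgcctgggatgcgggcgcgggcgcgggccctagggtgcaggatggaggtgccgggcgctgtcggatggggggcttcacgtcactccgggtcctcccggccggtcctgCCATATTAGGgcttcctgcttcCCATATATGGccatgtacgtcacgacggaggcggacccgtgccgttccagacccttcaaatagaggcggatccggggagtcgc
TNFAIP3: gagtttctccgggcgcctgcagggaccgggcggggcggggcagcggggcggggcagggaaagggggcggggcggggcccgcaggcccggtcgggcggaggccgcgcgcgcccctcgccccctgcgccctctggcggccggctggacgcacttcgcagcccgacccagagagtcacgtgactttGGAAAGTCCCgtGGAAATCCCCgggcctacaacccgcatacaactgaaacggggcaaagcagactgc
HSPE1: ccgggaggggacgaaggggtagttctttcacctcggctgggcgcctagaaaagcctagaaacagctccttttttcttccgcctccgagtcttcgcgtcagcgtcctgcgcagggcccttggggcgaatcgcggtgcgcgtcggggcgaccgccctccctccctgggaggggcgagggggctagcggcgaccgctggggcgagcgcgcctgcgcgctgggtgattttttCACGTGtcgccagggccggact
The CArG box is the letter pattern of serum response factor, and EGR1 held 2 matches, at 105 and 83 bases before the start. The kappa-B motif is that of NF-kB, and TNFAIP3 held 2 matches, at 67 and 55 bases. The E-box is a pattern of MYC and related factors, and HSPE1 held 1 match at 22 bases. TNFAIP3 also held 1 E-box, at 78 bases, which is left in lower case. Both strands were searched. Of all 35116 RefSeq windows of this length, 1.16% held a CArG box, 5.21% a kappa-B motif and 6.34% the E-box. Of 20 windows for 14 of the 16 ERK feedback genes described below, 0 held a CArG box. A match is a description of the letters and not a bound site.

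The 4 WT libraries held 15617178 to 17615182 estimated counts. The first principal component of these libraries, with 93.2% of their variance, separated the PMA-treated from the unstimulated pair. Genes that define T cells were present in each library, and the summed level of 16 such genes was 3072 and 3102 CPM without PMA and 6304 and 6316 CPM with it. Of these 16, 6 rose, 0 fell and 10 did not pass, with a median log2 fold change of 1.05 (3, 3, 4 and 5 rose when unstimulated library 1, unstimulated library 2, PMA library 1 or PMA library 2 was left out, an order kept in all such sets of 4 below, and 12 with the libraries paired by number). Mitochondrially encoded genes took 3.48% and 3.75% of counts without PMA and 6.04% and 5.76% with it, and ribosomal protein genes 7.67% and 7.19% against 6.05% and 5.22%. HDAC7 (chromosome 12, 47782722 to 47833132, minus strand), which is unedited here, stood at 45.7 and 58.1 CPM without PMA and 244 and 238 CPM with it (2.21 ± 0.27, adjusted p = 0.000128).

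PMA changed 4038 of 18073 genes tested (22.3%), of which 2003 rose (11.1%) and 2035 fell (11.3%). With the libraries paired by their replicate numbers the count was 6590 (36.5%), with 3196 risen and 3394 fallen. Leaving out 1 WT library (a left-out fit, in which the remaining library of its group is assumed to vary like the other groups) left 1419, 1904, 1704 and 1669 genes. A change of at least 2-fold was called in 1584 genes that rose and 1373 that fell, and a log2 change of at least 5 in 204 and 35. The levels of the 2 groups did not overlap for 73.3% of all genes tested, so a lack of overlap alone marks little here. The genes labelled in the scatter of mean levels are taken from the 15 with the largest fold in each direction, at no less than 30 CPM in the higher group.

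**Figure D1:**
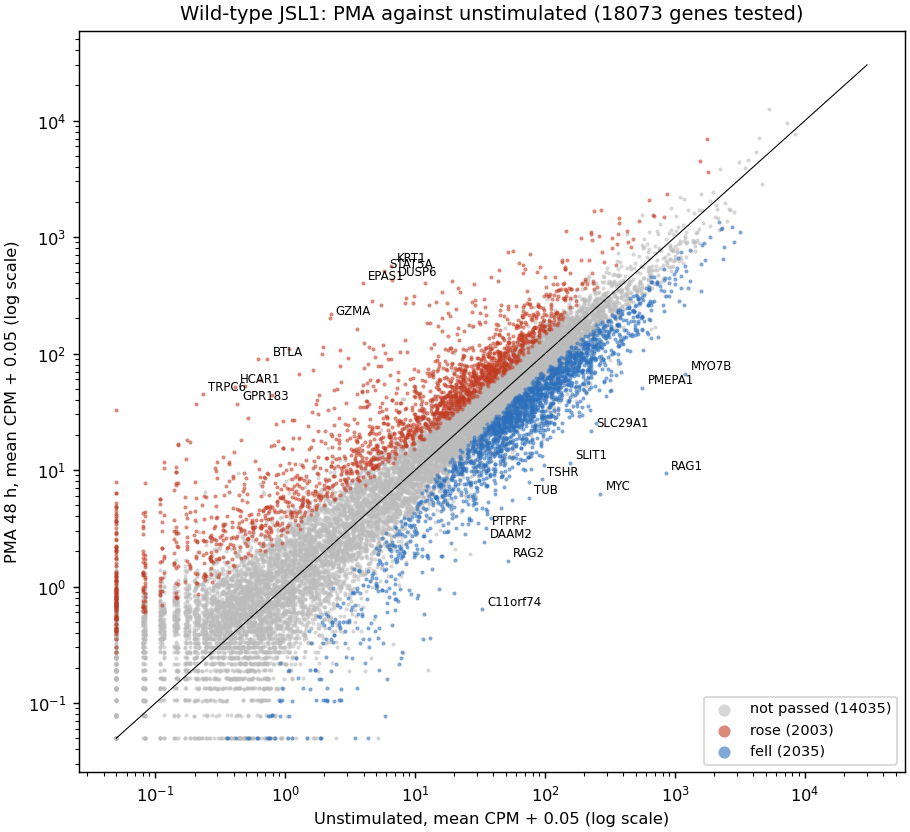
Mean CPM plus 0.05 of each gene tested in unstimulated (horizontal) and PMA-treated (vertical) wild-type libraries, both on log scales, with 2 libraries per group. Red marks the 2003 genes that rose, blue the 2035 that fell and grey the rest, and RAG1, MYC and C11orf74 lie farthest below the diagonal among the named genes.

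The largest rises included genes near or below 1 CPM without PMA. TRPC6, a cation channel opened by diacylglycerol, was at 0.067 and 0.296 CPM without PMA and at 45.4 and 43.8 CPM with it (7.84 ± 0.96), and its log2 fold change moved to 7.21 without unstimulated library 1 and to 9.25 without unstimulated library 2. KRT1, a keratin whose family members share reads, rose from 5.90 and 7.11 to 574 and 554 CPM (6.43 ± 0.69, adjusted p = 4.67e-05). Both unstimulated levels of TRPC6 rest on few counts, while those of KRT1 do not. COL6A3, a collagen chain, rose from 1.34 and 0.711 to 66.7 and 153 CPM (6.75 ± 0.63, or 6.04 to 7.28 over the left-out fits, farthest without PMA library 2).

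Among genes that fell, several were well expressed before PMA. MYO7B, a myosin, went from 1189 and 1203 CPM to 68.3 and 65.6 CPM (-4.16 ± 0.88, adjusted p = 0.00434), a call lost without PMA library 2. PMEPA1, an inhibitor of TGF-beta signalling, went from 576 and 543 to 50.1 and 51.4 CPM (-3.46 ± 0.32, adjusted p = 1.51e-05), and SLC29A1, a nucleoside transporter, from 240 and 209 to 20.6 and 22.7 CPM (-3.38 ± 0.56). Replicates of these 3 genes lay close together in both groups. ASS1, which makes the precursor of arginine, went from 53.1 and 57.2 to 5.42 and 5.49 CPM, and TSHR, the thyrotropin receptor, from 88.7 and 99.0 to 8.91 and 7.69 CPM.

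PMA acts first on PKC, and most of the PKC and diacylglycerol genes kept levels that did not pass the test. Of 10 PKC and PKD kinases 2 rose, 1 fell and 7 did not pass (median log2 0.29, against 0.03 over all genes). PRKCB, a conventional isoform of lymphocytes, stood at 34.5 and 37.7 CPM without PMA and at 115 and 113 CPM with it (1.66 ± 0.28, adjusted p = 0.00102). PRKD2, a kinase that PKC phosphorylates, rose from 59.0 and 62.1 to 181 and 168 CPM (1.52 ± 0.18, adjusted p = 0.000116). PRKCA, the other conventional isoform named, was at 244 CPM in both unstimulated libraries and at 71.5 and 107 CPM with PMA, so that 1 isoform rose as another fell. Its fall (-1.45 ± 0.35, adjusted p = 0.00862) lost the call without unstimulated library 1 or PMA library 1.

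RASGRP1 and DGKA, which pass on and end the diacylglycerol signal, moved in opposite directions. RASGRP1, which couples diacylglycerol to RAS, fell from 195 and 202 CPM to 47.3 and 62.7 CPM (-1.85 ± 0.36, adjusted p = 0.00271). DGKA, a diacylglycerol kinase that ends the signal, rose from 78.3 and 95.2 to 496 and 508 CPM (2.53 ± 0.34, adjusted p = 0.000238). Both genes showed groups that were far apart beside the spread within them. Of the 10 RASGRP and diacylglycerol kinase genes, 2 rose, 2 fell and 6 did not pass (median -0.06, and 2 and 3 with the libraries paired). DGKQ rose 2.33-fold, a call lost without unstimulated library 1 or PMA library 2, and DGKD fell 1.5-fold, a call lost in each of the 4 left-out fits.

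Few core genes of the cascade between RAS and ERK passed the test. Of 23, 2 rose, 1 fell and 20 did not pass, with a median of 0.12. Of all genes tested, 11.1% rose and 11.3% fell. With the libraries paired 5 rose, as did 17.7% of all genes. A fit to the 4 WT libraries alone called 8 risen and 2 fallen, and 4107 and 4177 of all 15722 genes it tested. RASA1, a GTPase-activating protein that switches RAS off, rose from 46.2 and 36.5 to 124 and 170 CPM (1.83 ± 0.34, adjusted p = 0.00199). Its relative RASA2 rose 2.09-fold (call lost in the fits without unstimulated libraries 1 and 2 and PMA library 1), and HRAS fell 1.91-fold (call lost in each of the 4 left-out fits). The ERK1 gene MAPK3 held 73.1 and 80.1 CPM without PMA and 78.9 and 71.3 with it, and did not pass. It was outside the naming rule and was added after its values were seen.

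The feedback genes downstream of ERK carried the highest share of risen members among the lists of at least 10 tested genes. Of 16 dual-specificity phosphatase, Sprouty and related genes, 12 rose, 2 fell (DUSP16 and DUSP7) and 2 did not pass, and the median log2 fold change was 2.0. The counts of risen members were 9, 9, 11 and 9 with 1 library left out, in which 0 fell, and 13 with the libraries paired. DUSP6, the cytoplasmic phosphatase that acts on ERK (chromosome 12, 89347232 to 89353271, minus strand), was at 7.84 and 5.34 CPM without PMA and at 492 and 367 CPM with it (6.03 ± 0.41, adjusted p = 1.96e-06). SPRY4, a Sprouty inhibitor of RAS activation, went from 1.81 and 3.50 to 52.3 and 61.2 CPM (4.41 ± 0.63, adjusted p = 0.00036). In both genes the lower PMA value lay far above the higher unstimulated value. PHLDA1 rose from 4.69 and 4.68 to 82.3 and 138 CPM and DUSP4, a nuclear phosphatase, from 0.335 and 0.534 to 8.79 and 9.99 CPM.

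ETS and EGR factors, which answer to ERK, rose at some genes and not at others. EGR1 (chromosome 5, 138465490 to 138469315, plus strand), a zinc finger factor whose upstream bases hold the CArG boxes printed above, stood at 16.2 and 16.1 CPM in unstimulated cells and at 272 and 398 CPM after 48 h of PMA (4.38 ± 0.37, adjusted p = 8.39e-06). Of 20 ETS and serum response factor cofactor genes, 6 rose, 1 fell and 13 did not pass (median 0.22). Left-out fits gave 2, 4, 4 and 4 risen and 0, 0, 0 and 1 fallen members, and pairing gave 8. ETV5, a PEA3 subfamily factor, rose from 5.76 and 6.46 to 80.5 and 100 CPM (3.88 ± 0.57, adjusted p = 0.000437). Its relative ETV4 rose from 0.134 and 0.237 to 6.62 and 5.21 CPM, a call lost without unstimulated library 1. MRTFA, a cofactor of serum response factor, rose from 26.7 and 28.6 to 69.5 and 69.0 CPM (1.32 ± 0.16, adjusted p = 0.000116), whereas SRF itself, added after its values were seen, was at 136 and 152 against 160 and 185 CPM and did not pass. ETS1 rose 2.97-fold, again not without unstimulated library 1.

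Of 23 AP-1 and related leucine zipper genes 6 rose, 2 fell and 15 did not pass (median 0.51). Fits without 1 library left 2, 4, 5 and 4 risen, and pairing gave 8 risen and 3 fallen. BACH2, a repressor that competes for AP-1 sites, rose from 11.1 and 18.4 to 73.4 and 102 CPM (2.57 ± 0.39, adjusted p = 0.000492). MAFF, a small MAF partner, rose from 4.89 and 7.11 to 27.9 and 28.3 CPM (2.22 ± 0.33). ATF5, a factor of the amino acid stress response, fell from 183 and 169 to 39.5 and 35.4 CPM (-2.23 ± 0.29, adjusted p = 0.0002). JUNB rose 2.50-fold, a call lost without unstimulated library 1. In the NFAT and calcineurin list, the branch a phorbol ester does not engage directly, 3 of 19 rose, 1 fell and 15 did not pass (median 0.12), and 0 passed in each of the 4 left-out fits. Its called members ITPR1, NFAT5 and NFATC2 were 2.08-fold, 1.95-fold and 1.5-fold higher with PMA, and RCAN1, a calcineurin inhibitor that NFAT induces, was 1.66-fold lower. With the libraries paired 6 members of that list rose. Of all genes tested 11.1% rose, and 17.7% with pairing.

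Some negative regulators of T cell signalling rose, and the part of NF-kB in these rises was not tested. Among 27 negative regulators of T cell signalling 8 rose, 2 fell and 17 did not pass (median 0.59, 3, 3, 5 and 6 risen and 1, 2, 1 and 1 fallen without 1 library, 12 risen with pairing). TNFAIP3, which encodes the ubiquitin-editing inhibitor A20 (chromosome 6, 137867188 to 137883312, plus strand), rose from 28.9 and 25.8 to 223 and 233 CPM (3.06 ± 0.53, adjusted p = 0.00122). CBLB, a ubiquitin ligase that restrains receptor signalling, rose from 14.5 and 18.4 to 72.6 and 78.2 CPM (2.20 ± 0.35, adjusted p = 0.000756). The receptor CD6 rose 6.08-fold but not without either unstimulated library, and SLA2 7.24-fold but not without unstimulated libraries 1 and 2 or PMA library 1.

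**Figure D2:**
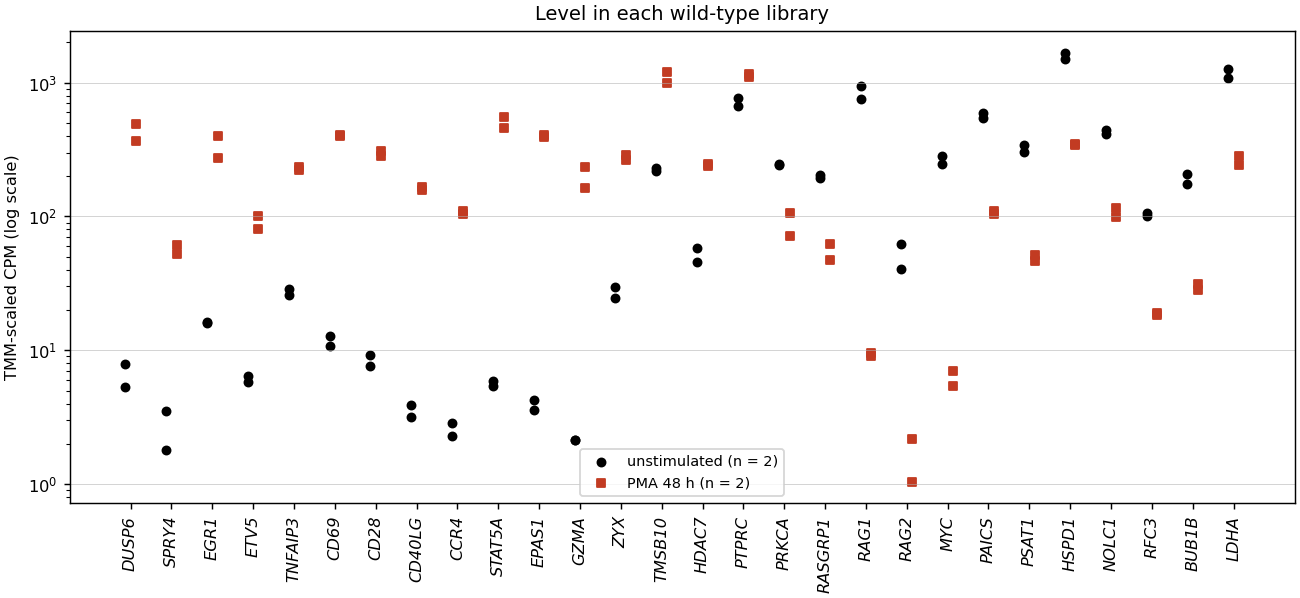
CPM on a log scale of selected named genes in each of the 4 wild-type libraries, with circles for unstimulated and squares for PMA-treated cells. The circles and squares do not overlap for any of these genes, a trait of 73.3% of all genes tested. PTPRC, at 670 and 771 CPM against 1106 and 1163 CPM, did not pass the test.

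Genes of signal transducers and of the T cell programme moved in both directions. STAT5A, which relays interleukin-2 family signals, rose from 5.90 and 5.4 to 554 and 458 CPM (6.48 ± 0.44, adjusted p = 1.96e-06), and its neighbour on chromosome 17, STAT5B, from 101 and 100 to 475 and 436 CPM (2.18 ± 0.40, adjusted p = 0.00174). Reads of these near-identical copies can be split between them. TOX2 rose from 10.9 and 8.54 to 329 and 291 CPM (5.00 ± 0.81) and RUNX2, a RUNT domain factor, from 5.03 and 5.75 to 72.0 and 82.9 CPM (3.84 ± 0.53). Of 29 effector and memory factors 7 rose, 0 fell and 22 did not pass (median 0.38), and 5 rose in each of the 4 fits without 1 library. With the libraries paired 10 of them rose and 4 fell.

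Of 21 T cell lineage factors 8 rose, 5 fell and 8 did not pass (median 0.47, with 5, 4, 7 and 7 risen and 3, 4, 3 and 3 fallen without 1 library, and 10 risen and 9 fallen with pairing). The largest fall in this list was at the recombinase locus of chromosome 11. RAG1 (36510709 to 36593156, plus strand), whose product cuts antigen receptor gene segments with RAG2, went from 943 and 750 CPM to 9.08 and 9.55 CPM (-6.50 ± 0.48, adjusted p = 3.44e-06). RAG2 (36575574 to 36598279, minus strand) went from 62.7 and 40.4 to 2.17 and 1.04 CPM (-5.00 ± 0.56, adjusted p = 6.24e-05), and C11orf74 from 32.8 and 31.9 to 0.628 and 0.549 CPM. These annotations overlap, and the strandedness of the libraries is not given in the sources used here, so reads in the shared stretches are uncertain. LMO2, a leukemia-associated LIM protein, was near the limit of detection without PMA (0.067 and 0.119 CPM) and at 11 and 10.2 CPM with it, a count ratio of 112 with a 95% counting interval of 38.2 to 547. LYL1, a basic helix-loop-helix partner of LMO2, had a ratio of 172 (58.5 to 835) and lost its call without unstimulated library 2. TCF7, GATA3 and LEF1, named after their values were seen, went apart, as TCF7 fell from 302 and 181 to 57.4 and 48.3 CPM, GATA3 rose from 66.5 and 73.3 to 532 and 527 CPM and LEF1 rose from 603 and 660 to 1997 and 2135 CPM. TCF7 lost its call without unstimulated library 1 or either PMA library, and LEF1 without either unstimulated library.

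Surface receptors and ligands rose more often than they fell. Of 27 cytokine receptor chains 14 rose, 0 fell and 13 did not pass, with a median of 1.52 (7, 7, 10 and 9 risen without 1 library, and 18 with pairing). IL2RA, the high-affinity chain of the interleukin-2 receptor, was at 0.067 and 0.178 CPM without PMA and at 10.1 and 14.8 CPM with it. Its log2 fold change of 6.56 ± 1.30 moved to 7.40 without unstimulated library 2. IL21R rose from 0.335 and 0.296 to 10.3 and 12.2 CPM (5.13 ± 0.71), and TGFBR2, the ligand-binding chain for TGF-beta, from 15.7 and 16.4 to 135 and 177 CPM (3.28 ± 0.64, adjusted p = 0.00264). The low counts of the first pair without PMA make their folds less certain than that of TGFBR2. IL12RB1 rose 5.56-fold, a call lost without either unstimulated library.

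Of 21 TNF superfamily ligands and receptors 11 rose, 0 fell and 10 did not pass (median 1.63, 3, 4, 5 and 4 risen without 1 library). CD40LG, the ligand through which T cells help B cells, rose from 3.15 and 3.91 to 158 and 166 CPM (5.52 ± 0.68, adjusted p = 0.000134). TNFSF10, the death ligand TRAIL, rose from 0.670 and 1.54 to 35.2 and 18.9 CPM, and TNFRSF14, a ligand of BTLA, from 2.41 and 5.34 to 49.2 and 45.7 CPM. The log2 fold changes of TNFSF10 (4.59) and TNFRSF14 (3.60) moved to 5.33 and 4.30 without unstimulated library 2. TNFSF8 rose 21.9-fold but not without either unstimulated library. In the promoter windows of this family 6 of 19 held a kappa-B motif (31.6%), where 5.96% of the windows of all tested genes did. Some genes have several windows, so that share is a description with no test, and the family was picked out after the shares of all lists were seen.

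Soluble mediators were few. Of 30 cytokine and chemokine genes 14 had enough counts to be tested, and 6 of the 14 rose, 0 fell and 8 did not pass (median 2.26, with 1, 1, 3 and 2 risen without 1 library). IL16, a chemoattractant made as a precursor, rose from 4.96 and 5.87 to 270 and 254 CPM (5.6 ± 0.58, adjusted p = 4e-05). IL23A (4.30-fold) and CSF1 (2.09-fold) rose in the fit with all libraries and lost the call in each of the 4 left-out fits. Of the untested genes, IL5, IL10, IL21, CCL3, CCL4 and CXCL10 had 0 counts in all 4 WT libraries.

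Homing and adhesion genes rose in part. Of 22 chemokine and lipid homing receptors 7 rose, 1 (CXCR4) fell and 14 did not pass (median 1.42, 2, 3, 6 and 6 risen without 1 library). CCR4 rose from 2.28 and 2.85 to 104 and 109 CPM (5.37 ± 0.89, adjusted p = 0.000967), and GPR183, the receptor for oxysterols, from 0.335 and 0.415 to 29.8 and 44.0 CPM (6.59 ± 1.05). CXCR4, named as the member that fell, went from 256 and 234 to 29.2 and 21.5 CPM, a call kept without unstimulated library 2 and lost in the other left-out fits. Of 29 quiescence-associated genes 6 rose, 1 fell and 22 did not pass (median 0.32), with SLFN5 from 42.8 and 59.8 to 674 and 817 CPM and BTG1, an inhibitor of proliferation, from 22.9 and 20.5 to 144 and 115 CPM. The count for quiescence genes was 3, 3, 4 and 4 without 1 library and 9 with pairing. CCR2, whose reads can be shared with a similar copy, rose 58.4-fold and lost the call without unstimulated library 1. The CCR2 log2 fold change moved to 6.54 without unstimulated library 2. Of 25 integrin and adhesion genes 6 rose, 2 fell and 17 did not pass (median 0.86, 13 risen with pairing, and 3, 3, 4 and 4 risen and 0 fallen without 1 library), with ITGA6 at 22.5 and 19.6 against 146 and 150 CPM.

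CD69, a lectin that keeps cells in tissue, and CD28, the costimulatory receptor, were among the surface genes with tight replicates. CD69 stood at 10.8 and 12.7 CPM without PMA and at 403 and 400 CPM with it, and CD28 at 9.25 and 7.65 CPM against 310 and 285 CPM. BTLA, an inhibitory receptor, rose from 0.938 and 0.415 to 73.2 and 106 CPM (7.06 ± 1.10, moving to 7.73 or 6.58 as 1 library was left out, past 1.5 times without unstimulated library 1). EPAS1, a hypoxia-inducible factor, rose from 4.22 and 3.56 to 392 and 408 CPM (6.68 ± 0.53, adjusted p = 5.64e-06). The cytotoxic genes GZMA and PRF1 rose too, GZMA from 2.14 and 2.13 to 236 and 164 CPM (6.54 ± 1.18) and PRF1 from 0.134 and 0.356 to 8.28 and 11.1 CPM (5.24 ± 0.97, 6.11 without unstimulated library 2). They are 2 of the 8 of 22 granule protein, cathepsin and serpin genes that rose, with 0 fallen, 14 not passed and a median of 0.93 (4, 6, 5 and 5 without 1 library, 13 with pairing). Of 4 natural killer cell markers 0 passed, though with pairing NCAM1 (adjusted p = 0.0494) and NKG7 (adjusted p = 0.0312) did. Their summed level was 18.8 and 17.0 CPM without PMA and 28.3 and 29 CPM with it, FCGR3A and GNLY had 0 counts, and any part of such cells in these results was not tested.

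Markers of other cell types are given here because some rose. Of 7 tested mast cell and basophil markers out of 10, 4 rose (HDC, CPA3, HPGDS and MS4A2), 1 fell (KIT) and 2 did not pass (2, 3, 3 and 4 risen without 1 library). Their summed level was 17.0 and 17.1 CPM without PMA and 121 and 105 CPM with it, while TPSAB1, which defines mast cells, had 0 counts in the 4 libraries. Most of the sum was KIT without PMA (15 and 14.7 CPM) and HDC with it. HDC, which makes histamine, went from 0.469 and 0.652 to 92.2 and 85.7 CPM (7.28 ± 1.48, adjusted p = 0.00339), a call lost without unstimulated library 1. Of 4 tested monocyte markers out of 13, 2 rose (S100A9 and CD68), with sums of 1.54 and 2.61 against 14.7 and 8.45 CPM, and LYZ, FCGR1A, MPO and ELANE had 0 counts. Those monocyte calls numbered 0, 1, 0 and 2 without 1 library. Of 4 tested B cell markers out of 8, 0 passed, and MS4A1 had 0 counts. With pairing 3 of the 4 rose, among them CD79A (adjusted p = 0.0221) and BLK (adjusted p = 0.0419). The 8 summed to 26.1 and 17.8 CPM without PMA and 70.5 and 39.3 CPM with it. CD79A alone held 18.3 and 10.1 CPM without PMA and 57.8 and 29.3 CPM with it. Among epithelial and stromal markers COL3A1 rose, except without unstimulated library 1, and EPCAM, CDH1 and KRT19 had 0 counts. The part of such cells in the results was not tested.

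The actin cytoskeleton was a group with many risen members of high level. Of 39 actin and intermediate filament genes 19 rose, 4 fell, among them TAGLN2, LMNB2 and RDX, and 16 did not pass, with a median of 1.02 (9, 14, 16 and 16 risen and 3, 3, 2 and 3 fallen without 1 library, 26 risen with pairing). ZYX, a focal adhesion protein, rose from 24.7 and 29.9 to 264 and 286 CPM (3.33 ± 0.26, adjusted p = 5.64e-06). EVL, which protects growing filament ends, rose from 194 and 180 to 993 and 964 CPM (2.39 ± 0.31), and MYO1G, a membrane myosin of blood cells, from 183 and 266 to 1065 and 1058 CPM (2.24 ± 0.38). The groups of these 3 genes did not overlap, a trait of 73.3% of all genes tested. TMSB10, a thymosin that binds actin monomers, rose from 219 and 230 to 1205 and 1000 CPM (2.29 ± 0.38, adjusted p = 0.00107). VAV3, an exchange factor for small GTPases, rose from 33.4 and 35.3 to 259 and 246 CPM (2.88 ± 0.42) and ARHGEF2 from 115 and 130 to 389 and 393 CPM (1.67 ± 0.20, adjusted p = 0.000106).

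On the length-scaled measure (TPM, transcripts per 1000000), genes that rose went from 4.42% to 14.0% of all transcripts, and genes that fell from 23.4% to 11.3%. The largest gain in mean gene TPM among called genes was that of TMSB4X, a thymosin, from 4261 to 18137 TPM, with 1784 and 1746 CPM against 7627 and 6132 CPM. MYL6, a myosin light chain, went from 744 to 2467 TPM. CORO1A, an actin regulator of leukocytes, went from 823 to 2279 TPM but lost its call without unstimulated library 1. B2M, PFN1 and the mitochondrial ribosomal RNA MT-RNR1 were also among the 8 largest gains, and their calls were lost in each of the 4 left-out fits. MT-RNR1 moved with the mitochondrial share of counts given above, and the part of that share in its change was not tested. The largest losses were those of RPL41, NPM1, RPL35, RPS21, TUBA1B, PPIA, ENO1 and HSPA8. NPM1, a nucleolar chaperone, went from 3449 to 1365 TPM (-1.43 ± 0.27, adjusted p = 0.0022) and kept its call without each library, while the ribosomal protein genes, TUBA1B and PPIA lost theirs in each of the 4 left-out fits. ENO1 lost its call in 3 of those fits (without unstimulated library 1, PMA library 1 or PMA library 2) and HSPA8 in 2 (without unstimulated library 1 or PMA library 1). Several of these genes have processed copies in the genome with which reads can be shared.

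**Figure D3:**
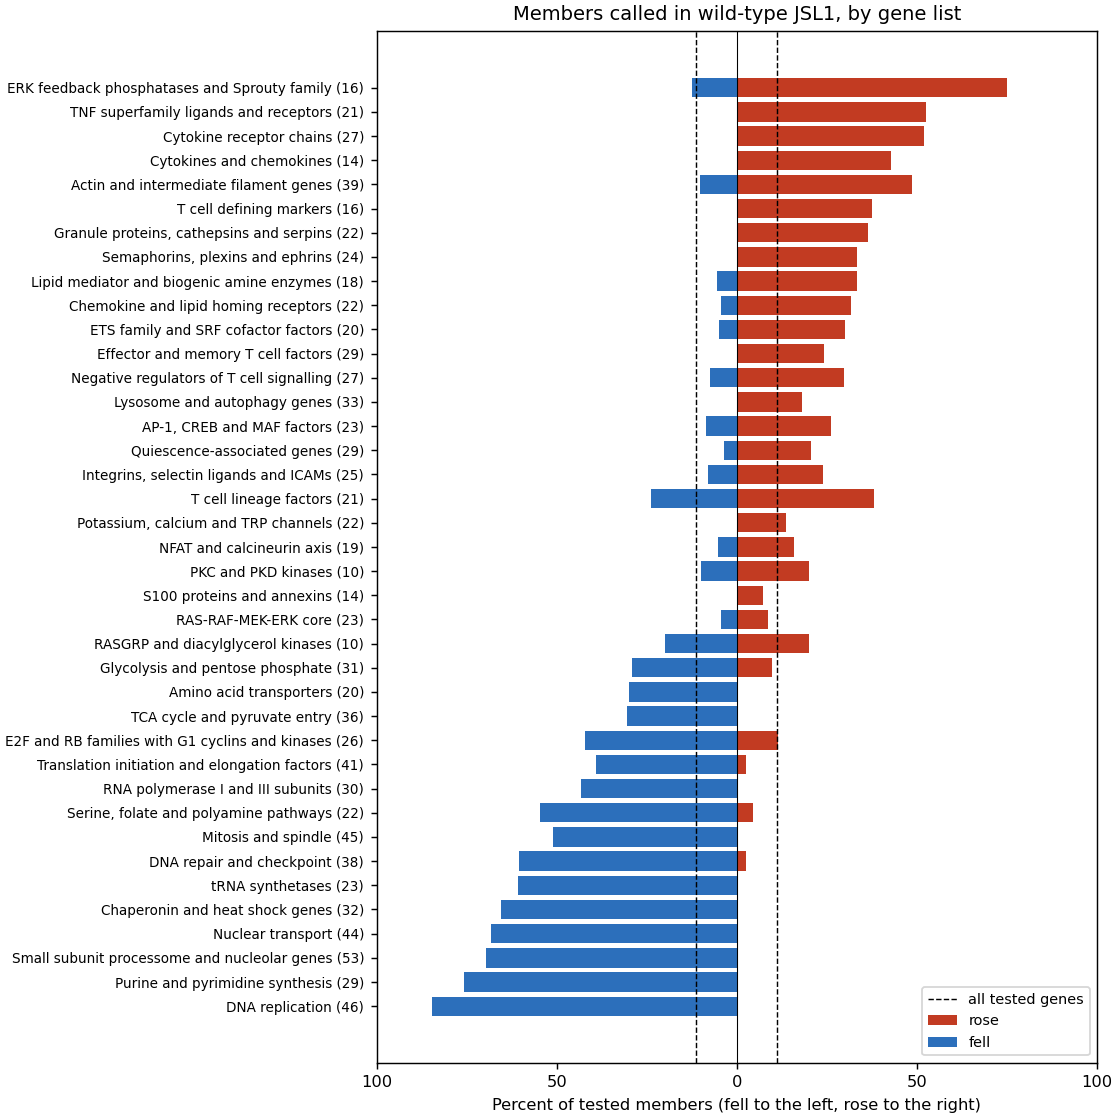
Percent of the tested members of gene lists that rose (red, to the right) or fell (blue, to the left) in wild-type cells, with the number tested in brackets and dashed lines at the 11.1% and 11.3% of all genes that rose and fell. ERK feedback genes have the longest bar to the right and DNA replication genes the longest to the left.

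MYC (chromosome 8), a growth factor-responsive transcription factor, fell from 283 and 245 CPM to 5.37 and 7.03 CPM (-5.41 ± 0.49, adjusted p = 1.3e-05), and many genes of cell growth and division fell as well. Of 46 DNA replication genes 39 fell, 0 rose and 7 did not pass, with a median of -1.76 (15, 22, 10 and 9 fallen without 1 library, 43 with pairing). RFC3, a subunit of the clamp loader, went from 106 and 100 to 18.9 and 18.3 CPM (-2.47 ± 0.42, adjusted p = 0.00112). MCM4, a subunit of the replicative helicase, went from 328 and 302 to 45.3 and 49.8 CPM (-2.73 ± 0.64), and POLE2, of the leading-strand polymerase, from 25.6 and 26.4 to 4.34 and 2.96 CPM. MCM4 and POLE2 lost their calls without either PMA library, and the licensing factor CDT1 (5.48-fold lower) in each of the 4 left-out fits. The libraries are bulk samples, so fewer dividing cells and less of each RNA per cell cannot be told apart.

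Among all genes tested, 73.3% had groups that did not overlap, in either direction. Mitotic genes were lower in both PMA libraries than in both unstimulated libraries for 45 of 45 tested members. Of these 23 fell and 22 did not pass, with a median of -1.90, and 41 fell with the libraries paired (5, 8, 2 and 3 without 1 library). BUB1B, a spindle checkpoint kinase, went from 208 and 175 to 28.1 and 31.3 CPM (-2.69 ± 0.62), CCNA2, the S and G2 cyclin, from 206 and 178 to 34.7 and 35.0 CPM (-2.46 ± 0.65) and PRC1, a midzone protein, from 214 and 210 to 35.2 and 36.0 CPM. BUB1B and TTK lost their calls without either PMA library, and CCNA2 and PRC1 also without unstimulated library 1. In a fit to the 4 WT libraries alone 45 of 45 fell, as did 4177 of all 15722 genes tested in that fit. Of 26 E2F, RB and G1 genes 11 fell, 3 rose and 12 did not pass (median -1.19, 16 fallen with pairing and 3, 5, 3 and 2 without 1 library). TFDP1, the partner of E2F proteins, fell from 328 and 284 to 93.7 and 91.7 CPM (-1.72 ± 0.33, adjusted p = 0.00219). E2F2 and E2F7 were 5.72-fold and 5.81-fold lower, calls lost without unstimulated library 1 or either PMA library (E2F2) and in each of the 4 left-out fits (E2F7). The 3 that rose were CCND1, CCND2 and CDK6, and 0, 0, 1 and 1 rose without 1 library. Of 38 DNA repair and checkpoint genes 23 fell, 1 (ATM, a call kept only without PMA library 1) rose and 14 did not pass (median -1.26, 32 fallen with pairing and 9, 13, 8 and 7 without 1 library). XRCC2, a factor of recombination repair, fell from 78.4 and 68.4 to 12.3 and 13.3 CPM but not without either PMA library.

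Genes for the synthesis of nucleotides and folate carriers also fell. Of 29 purine and pyrimidine genes 22 fell, 0 rose and 7 did not pass, with a median of -1.49 (15, 15, 14 and 13 without 1 library, 28 with pairing). PAICS, of purine ring assembly, went from 591 and 547 to 110 and 104 CPM (-2.41 ± 0.27, adjusted p = 6.02e-05), and IMPDH2, which commits to guanine nucleotides, from 375 and 346 to 86.8 and 87.4 CPM (-2.05 ± 0.27, adjusted p = 0.000188). PRPS2, which supplies the ribose phosphate, went from 112 and 96.8 to 22.7 and 22 CPM. Each of these 3 genes kept its call in the 4 fits without 1 library, whereas thymidylate synthase (TYMS, 4.78-fold lower) passed in 0 of those fits. Of 22 serine, folate and polyamine genes 12 fell, 1 (SMOX, a call lost in each left-out fit) rose and 9 did not pass (median -0.89, 7, 8, 7 and 8 fallen without 1 library). The serine pathway enzymes PHGDH and PSAT1 went from 381 CPM in both unstimulated libraries to 67.8 and 70.6 CPM and from 304 and 343 to 51.2 and 46.2 CPM. MTHFD2, a mitochondrial folate enzyme, fell from 314 and 318 to 62.9 and 55.9 CPM (-2.41 ± 0.47, adjusted p = 0.00272).

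Genes that build ribosomes fell too. Of 53 small subunit processome and nucleolar genes 37 fell, 0 rose and 16 did not pass (median -0.90, 25, 26, 22 and 26 without 1 library, 46 with pairing). NOLC1, a nucleolar phosphoprotein, went from 445 and 413 to 98.4 and 116 CPM (-2.0 ± 0.24, adjusted p = 0.000114), and EBNA1BP2, a large subunit assembly factor, from 202 and 189 to 48.5 and 50.8 CPM (-1.97 ± 0.31). Of 30 RNA polymerase I and III genes 13 fell, 0 rose and 17 did not pass (median -0.36, 4, 6, 3 and 6 without 1 library). POLR3G, the polymerase III subunit of growing cells, fell from 49.0 and 44.6 to 8.39 and 9.17 CPM (-2.41 ± 0.29, adjusted p = 0.00011). The E-box was held by 8.95% of the promoter windows of all genes that fell, 6.45% of those of genes that rose and 8.21% of those of all tested genes, as a description with no test.

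Translation genes and chaperones were lower as well. Of 23 tRNA synthetase and complex genes 14 fell, 0 rose and 9 did not pass (median -0.68, 10, 11, 8 and 9 without 1 library), such as FARSB from 164 and 147 to 47.5 and 49.0 CPM (-1.68 ± 0.25, adjusted p = 0.000492). Of 41 translation factors 16 fell, 1 (EIF4G3, a call lost without unstimulated library 1) rose and 24 did not pass (median -0.45, 7, 8, 6 and 7 fallen without 1 library). EIF5A, a factor that carries hypusine, fell from 1294 and 1198 to 390 and 339 CPM (-1.77 ± 0.33, adjusted p = 0.00187). The share of counts from ribosomal protein genes was lower with PMA, as given above, and its part in these changes was not tested. Of 32 chaperonin and heat shock genes 21 fell, 0 rose and 11 did not pass (median -1.06, 11, 15, 11 and 12 without 1 library, 29 with pairing). HSPD1 and HSPE1, which form the mitochondrial chaperonin, lie head to head on chromosome 2 and went from 1670 and 1493 to 349 and 341 CPM and from 647 and 573 to 163 and 145 CPM (-2.20 ± 0.27 and -1.99 ± 0.33, adjusted p = 0.000127 and 0.00106). Their annotations overlap, so reads in the shared stretch are uncertain. TRAP1, a mitochondrial HSP90, fell from 284 and 267 to 66.9 and 79.4 CPM (-1.91 ± 0.18, adjusted p = 1.76e-05).

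Genes of transport through the nuclear pore fell likewise. Of 44 importin, exportin and nucleoporin genes 30 fell, 0 rose and 14 did not pass (median -0.85, 19, 20, 17 and 20 without 1 library, 36 with pairing). CSE1L, which recycles importin alpha, went from 334 and 309 to 67.8 and 72.9 CPM (-2.19 ± 0.26, adjusted p = 0.00011), and IPO4 from 129 and 134 to 41.3 and 40.8 CPM (-1.68 ± 0.16, adjusted p = 2.2e-05). Some genes of energy metabolism fell. Of 36 tricarboxylic acid cycle genes 11 fell, 0 rose and 25 did not pass (median -0.45, 3, 4, 2 and 3 without 1 library, 20 with pairing), with GOT2 from 232 and 221 to 76.2 and 73.2 CPM. Of 31 glycolysis genes 9 fell, 3 rose and 19 did not pass (median -0.60, 2, 4, 2 and 2 fallen and 2, 2, 2 and 3 risen without 1 library, 17 fallen with pairing). LDHA, lactate dehydrogenase, went down from 1259 and 1076 to 285 and 242 CPM (-2.15 ± 0.38, adjusted p = 0.00139), while the glucose transporter SLC2A3 went up from 15 and 11.4 to 106 and 117 CPM (3.08 ± 0.53, adjusted p = 0.00125) and the lactate exporter SLC16A3 from 11.1 and 10.5 to 47.2 and 44.2 CPM. Of 20 amino acid transporters 6 fell, 0 rose and 14 did not pass (median -0.18, 2, 3, 2 and 1 without 1 library), with SLC6A9, a glycine transporter, from 6.90 and 6.28 to 0.457 and 0.384 CPM.

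**Figure D4:**
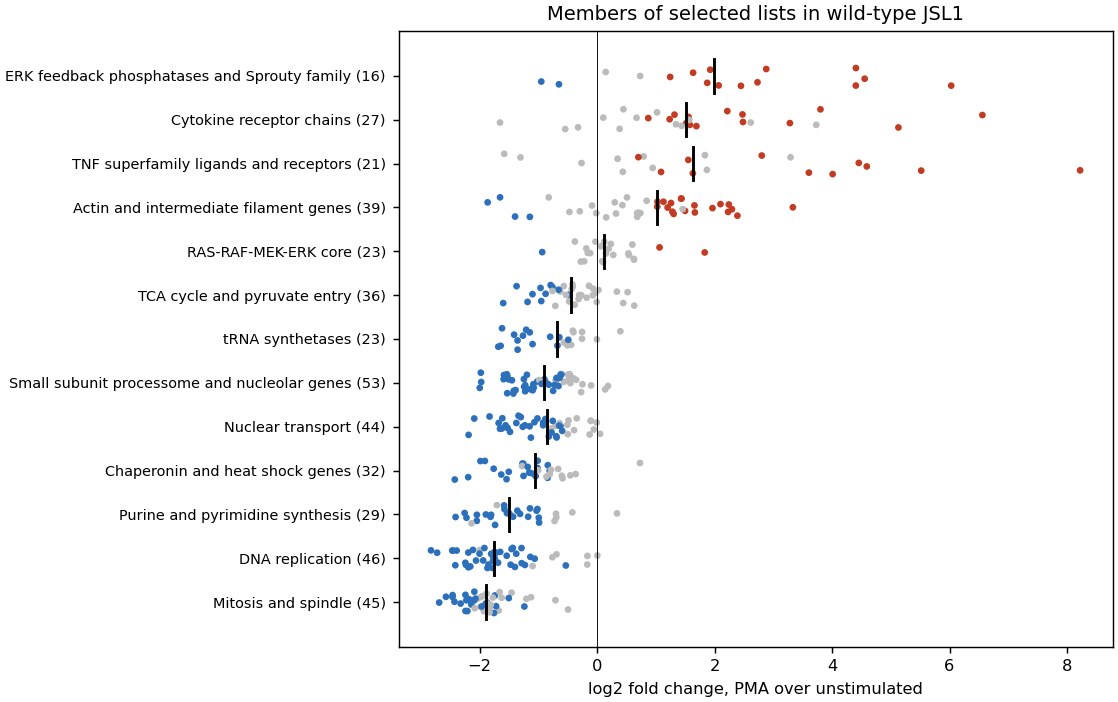
Log2 fold change (PMA over unstimulated) of each tested member of 13 lists, with black bars at the list medians, red for members that rose, blue for those that fell and grey for those that did not pass. Medians run from -1.90 for mitosis to 2.0 for ERK feedback genes, and that of the RAS-ERK core is 0.12.

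PTPRC (chromosome 1, 198638457 to 198757476, plus strand) encodes CD45, the receptor phosphatase whose variable exons A (198696712 to 198696909, 198 nt), B (198699564 to 198699704, 141 nt) and C (198702387 to 198702530, 144 nt) are skipped as T cells are activated, a switch for which this line has been a model. The gene's own level was 670 and 771 CPM without PMA and 1106 and 1163 CPM with it (0.66 ± 0.43, adjusted p = 0.295, and adjusted p = 0.0156 with the libraries paired). Transcripts with none of the 3 exons made up 40.2% and 45.6% of the TPM of the 11 transcripts that span the region in unstimulated cells, and 67.4% and 58.8% in PMA-treated cells, a difference of 20.2 percentage points. Shares of transcripts with exon A went from 38.1% and 35.5% to 13.0% and 15.8%, with exon B from 59.8% and 54.4% to 32.6% and 41.2%, and with exon C from 43.9% and 41.2% to 14.5% and 21.5%. All 9 spanning transcripts that hold any of the 3 exons hold exon B. The share with none is therefore what the exon B share leaves. Transcripts with exon A or C are among those with exon B. These 4 shares are thus not separate observations. Groups did not overlap for any of them, and the two-sided exact permutation p was 0.333 each time. No lower p can be reached with 2 libraries a group. The shares are estimates that Salmon divides among transcripts with common sequence, and the depth behind each is not known.

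**Figure D5:**
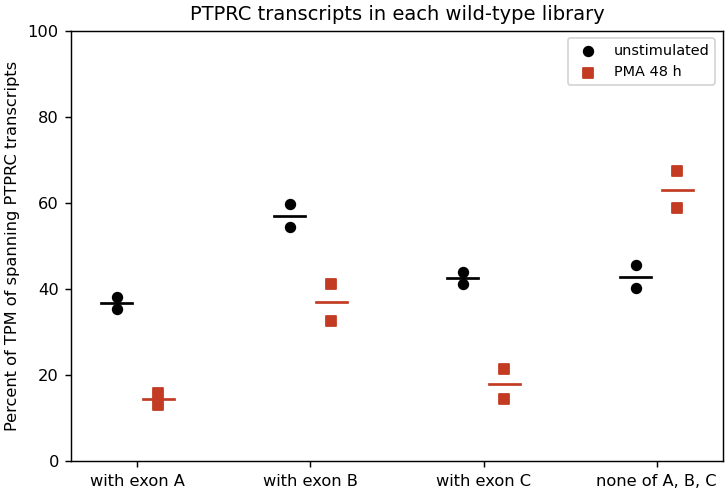
Percent of the TPM of spanning PTPRC transcripts that hold variable exon A, B or C, or none of them, in each wild-type library, with short bars at the means. Shares with each exon are lower in both PMA-treated libraries than in both unstimulated ones. The share with none, which is what the exon B share leaves, is higher (58.8% and 67.4% against 40.2% and 45.6%).

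The PMA response of WT was set against that of the edited lines gene by gene, as the difference of the log2 fold changes. By the edgeR test 0 of 18073 genes differed between WT and dE9 (0%), and 0 between WT and iE9 (0%), with 282 and 1022 genes at an unadjusted p under 0.05. DESeq2 called 1 and 62 genes and limma voom 0 and 0, and with the libraries paired the edgeR counts were 0 and 35. A count of 0 does not show that the responses are alike.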

How the data were processed

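Polyadenylated RNA was sequenced, and estimated counts and TPM per transcript, with effective lengths, were deposited by the authors, per the file headers. The submitters' processing notes name Salmon, DESeq2 and hg38. Versions, and whether the libraries were stranded, were not given in the sources used here. The deposited gene TPM table (0 unused columns) matched sums of transcript TPM. All 205870 transcripts matched GENCODE release 29, and estimated counts were summed over 58295 genes and rounded.

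Each gene was tested with edgeR 4.0.16 under R 4.3.3 (quasi-likelihood F test, two-sided, TMM factors, 16 libraries with 1 coefficient per group). filterByExpr kept 18073 of 33304 genes with a count, and p-values were Benjamini-Hochberg adjusted over them. The procedure was tested on simulated data. Those counts were drawn with no tie between same-numbered libraries, so the test does not cover the pairing described below. Total depth ran from 14536537 to 21888896, and the common biological coefficient of variation was 31.8%. No replicate pair agreed within sampling noise. Folds from 1 to 3 counts are count ratios with 95% intervals, which cover counting error only.

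Deviations from group means of same-numbered unstimulated and PMA libraries correlated in each of 8 pairs. The correlation was 0.137 in WT, where 2 libraries a group give both pairs 1 value. It was 0.309 to 0.491 in dE9 and 0.565 to 0.812 in iE9. In iE9, libraries 2 and 3 also correlated across numbers, at 0.56 and 0.466. Fits with the number as a block are therefore given, though not for every list whose counts they change. Risen and fallen counts with the block, among others not given elsewhere, were 12 and 1 for semaphorins, plexins and ephrins and 2 and 23 for translation factors. They were 1 and 18 for tRNA synthetases and 3 and 7 for amino acid transporters.

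The members, the 47 lists and the tests were chosen with earlier results of these data known. Named genes were the 15 per direction with the largest fold (called, no overlap, at least 30 CPM in the higher group), up to 4 called members per list with the largest fold (at least 5 CPM, or 2 members with the highest level), the 8 per direction with the largest TPM change, and 7 fixed genes. Promoters came from RefSeq (GRCh38.p14), which held windows for 11359 of 18037 tested symbols. Alternatives were other size factors, no low-count filter, WT libraries alone, robust estimation and the block. Others left out a chosen set of edited-line libraries or each WT library, or used limma 3.58.1 voom or DESeq2 1.42.0. The chosen set was PMA library 1 of dE9 and library 1 of both iE9 groups, while unstimulated library 1 of dE9 was kept. Some genes and lists are not reported here.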

Additional observations from a re-analysis of the deposited data

How the results depend on the processing

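The count of 4038 genes changed by PMA in WT became 8284 in a fit to the WT libraries alone, 6590 with the replicate block, 6920 without the edited-line libraries numbered 1, and 1419 to 1904 without 1 WT library, where each arm left with 1 sample has fewer degrees of freedom. It was 4035 with other size factors, 4400 without the low-count filter, 4016 with robust estimation, 3932 with limma voom and 4970 with DESeq2. For the difference from dE9, 0 genes became 49 without the filter, 134 without the edited-line set and 1 with DESeq2. For the difference from iE9, 0 became 292 without the filter, 35 with the replicate block, 31 without the edited-line set and 62 with DESeq2. The cause of these moves was not tested. Of 198 named genes that were called, 117 kept the call in each fit without 1 WT library, and 68, 45, 58 and 56 lost it without unstimulated library 1 or 2 or PMA library 1 or 2. The block ended no call of a named gene and added those given in the report. Other size factors ended 1 call, no filter 4, robust estimation 1 and limma voom 6. Among genes that did not pass, ITGA2B and HBA1 turned from negative to log2 fold changes of 0.56 and 0.69 without unstimulated library 2 (-0.52 and -0.64 without unstimulated library 1). PTPRC shares over protein-coding transcripts alone differed by 21.9 points for none of the exons. Where a gene has under about 1 CPM without PMA, depth limits its fold.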

Other observations

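Of 24 semaphorin, plexin and ephrin genes, which guide cell movement and contact, 8 rose, 0 fell and 16 did not pass (median log2 0.94, with 3, 7, 6 and 6 risen without unstimulated library 1, unstimulated library 2, PMA library 1 or PMA library 2). SEMA4A had 3 or fewer counts without PMA and 16.5 and 17.2 CPM with it, a count ratio of 179 with a 95% counting interval of 60.8 to 868. SEMA7A, a membrane-anchored semaphorin, rose from 6.57 and 4.33 to 30.8 and 32.8 CPM (2.55 ± 0.48, adjusted p = 0.00223). PLXNB1, a plexin receptor, rose from 12.1 and 25.7 to 105 and 119 CPM (2.56 ± 0.49, and 3.22 without unstimulated library 2). Of 18 lipid mediator and biogenic amine enzymes 6 rose, 1 fell and 11 did not pass (median 0.84, 3 risen without each WT library). ALOX5AP, which presents arachidonate to 5-lipoxygenase, rose from 6.03 and 2.73 to 119 and 109 CPM (4.71 ± 0.59, and 5.39 without unstimulated library 1), while ALOX5 itself, named after its values were seen, fell from 1.94 and 1.36 to 0.171 and 0.110 CPM, a call lost without each WT library. Of 33 lysosome and autophagy genes 6 rose, 0 fell and 27 did not pass (median 0.36, 13 risen with the libraries paired, and 2, 2, 3 and 3 without 1 WT library), with LAPTM5, a lysosomal membrane protein of blood cells, from 15.5 and 9.96 to 296 and 224 CPM (4.36 ± 0.78, adjusted p = 0.00156). Of 22 potassium, calcium and TRP channels 3 rose and 19 did not pass (median 0.70, with fewer risen without each WT library). Of 14 S100 and annexin genes 1 rose and 13 did not pass (median 0.09, the count being kept only without PMA library 2). Both counts stand beside 11.1% risen among all genes tested.

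Genes that went from under 0.5 CPM in both unstimulated libraries to at least 5 CPM in both PMA libraries numbered 42, of which 36 were protein-coding and 41 were called. The reverse held for 8 genes, all 8 called, namely SLC6A9, KANK4, TERT, TMEM52, SYT7, GPRC5B and the non-coding LINC01226 and CCDC26, listed after their values were seen. SYT7, a calcium sensor of vesicle release, was at 9.92 and 5.81 CPM without PMA and at 0.228 and 0.220 CPM with it. By annotated class, 12.3% of 13889 protein-coding genes rose and 13.6% fell, while 8.94% of 973 lincRNA genes rose and 3.29% fell, and 6.63% and 4.2% of 1357 antisense genes, whose reads cannot be told apart from those of their partners without strand.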
